A study of Mus musculus with 4 samples.

Results

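Serpins are a family of proteins that share a common fold. Most of them trap a serine or cysteine protease by offering an exposed loop as bait, and the complex that forms is irreversible and is cleared. Several members have lost the inhibitory step and act as chaperones or hormone carriers. In the lung the secreted serpins limit neutrophil elastase, plasmin formation and the complement and clotting cascades, whereas clade B serpins stay mostly inside the cell and hold its own granule and lysosomal proteases in check. The members were taken by symbol, from the mouse genes named Serpin followed by a clade letter from a to i and a number. This gave 62 of the 32289 features measured, of which 27 belonged to clade b, 24 to clade a and 11 to the other clades.

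Single cells from mouse lung tumours were measured by droplet RNA sequencing with 10x Genomics 3′ chemistry, version 3. All 4 libraries came from animals that carried the alleles p53frt, Rosa-FSF-CreERT2 and Hnf4aflox and whose tumours had been started by an adenovirus in which the mouse SPC promoter drives FlpO recombinase. SPC is surfactant protein C, a product of alveolar type 2 cells, and CreERT2 is a recombinase that tamoxifen activates. The animals received tamoxifen or vehicle 10 weeks after infection, and macroscopic tumours were collected 2 weeks later. The vehicle is called ethanol in one label and corn oil in the protocol. For each treatment, 1 library was made from the whole suspension (before depletion) and 1 from the portion left after magnetic removal of CD45-positive and CD31-positive cells (after depletion), which takes out immune and endothelial cells. Every group therefore held 1 library, the libraries before and after depletion were portions of the same suspensions, and how many animals or tumours were pooled is not stated. There was no replicate spread and no test. Differences are given by a rule of size, and intervals in parentheses are exact 95% intervals that cover counting error only.

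The libraries held 6558 to 7867 barcodes and 92644997 to 144994771 unique molecular identifiers (UMIs), and any pair of libraries shared 10 to 18 barcodes. Cells were clustered without the serpin genes and named from marker genes. Levels are given as CPM, the UMIs of a gene in every 1000000 UMIs summed over a class of cells in a library. A pair of values is given as vehicle, then tamoxifen, unless said otherwise. Epcam stood between 648 and 796 CPM in the epithelial-like class, and Sftpc between 62493 and 68815 CPM. Hnf4a, the gene that CreERT2 should recombine, stood at 53.8 CPM (51.1 to 56.5) in the vehicle library and 86.2 CPM (83 to 89.5) in the library labelled tamoxifen before depletion. After depletion the values were 55.2 CPM (53.9 to 56.4) and 83 CPM (81.4 to 84.5). The Hnf4a UMIs were thus higher, not lower, in the libraries labelled tamoxifen. The labels do not say which exons are floxed, and 3′ tags outside a deleted stretch check nothing. "Tamoxifen library" below means the library labelled so, and every direction rests on that label. A group of 459 cells (161, 129, 121 and 48 in the vehicle libraries before and after depletion and the tamoxifen libraries before and after it) carried epithelial and macrophage genes together and was set apart from all classes as mixed.

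Of the 62 serpins, 20 were detected, which here means at least 10 CPM from at least 10 UMIs in a named class of at least 50 cells in at least 1 library. The stromal-like class, which held fibroblast-like and mural-like cells, gave 7 of them their highest level in both libraries before depletion. The epithelial-like class led 3 members, the NK cell-like class 3, the B cell-like class 2, the monocyte-like class 1 and the neutrophil-like class 1. For 3 members (Serpinb2, Serpinb8 and Serpina3f) the leading class differed between these libraries. The lead went by CPM alone and was within counting error for some members. No share of all genes detected or led is set beside these counts. They therefore do not show whether a class led more serpins than genes in general. Summed over all 62 genes, the family reached 4207 and 3836 CPM in the stromal-like class before depletion, 1803 and 1798 in the NK cell-like class and 1131 and 1090 in the endothelial-like class. The dendritic cell-like class stood at 851 and 766 CPM and the epithelial-like class at 809 and 677 CPM. The alveolar macrophage-like class stood at 379.9 and 354 CPM, and the C1q macrophage-like class, whose cells carry complement C1q transcripts, at 182 and 149.1 CPM. The B cell-like class stood at 277 and 289 CPM, the T cell-like class at 255 and 322 CPM and the monocyte-like class at 173 and 174 CPM. Serpin transcripts thus took the highest share of all transcripts in stromal-like cells. These sums depend on the transcripts a 3′ library counts and say nothing of protein.

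**Figure D1:**
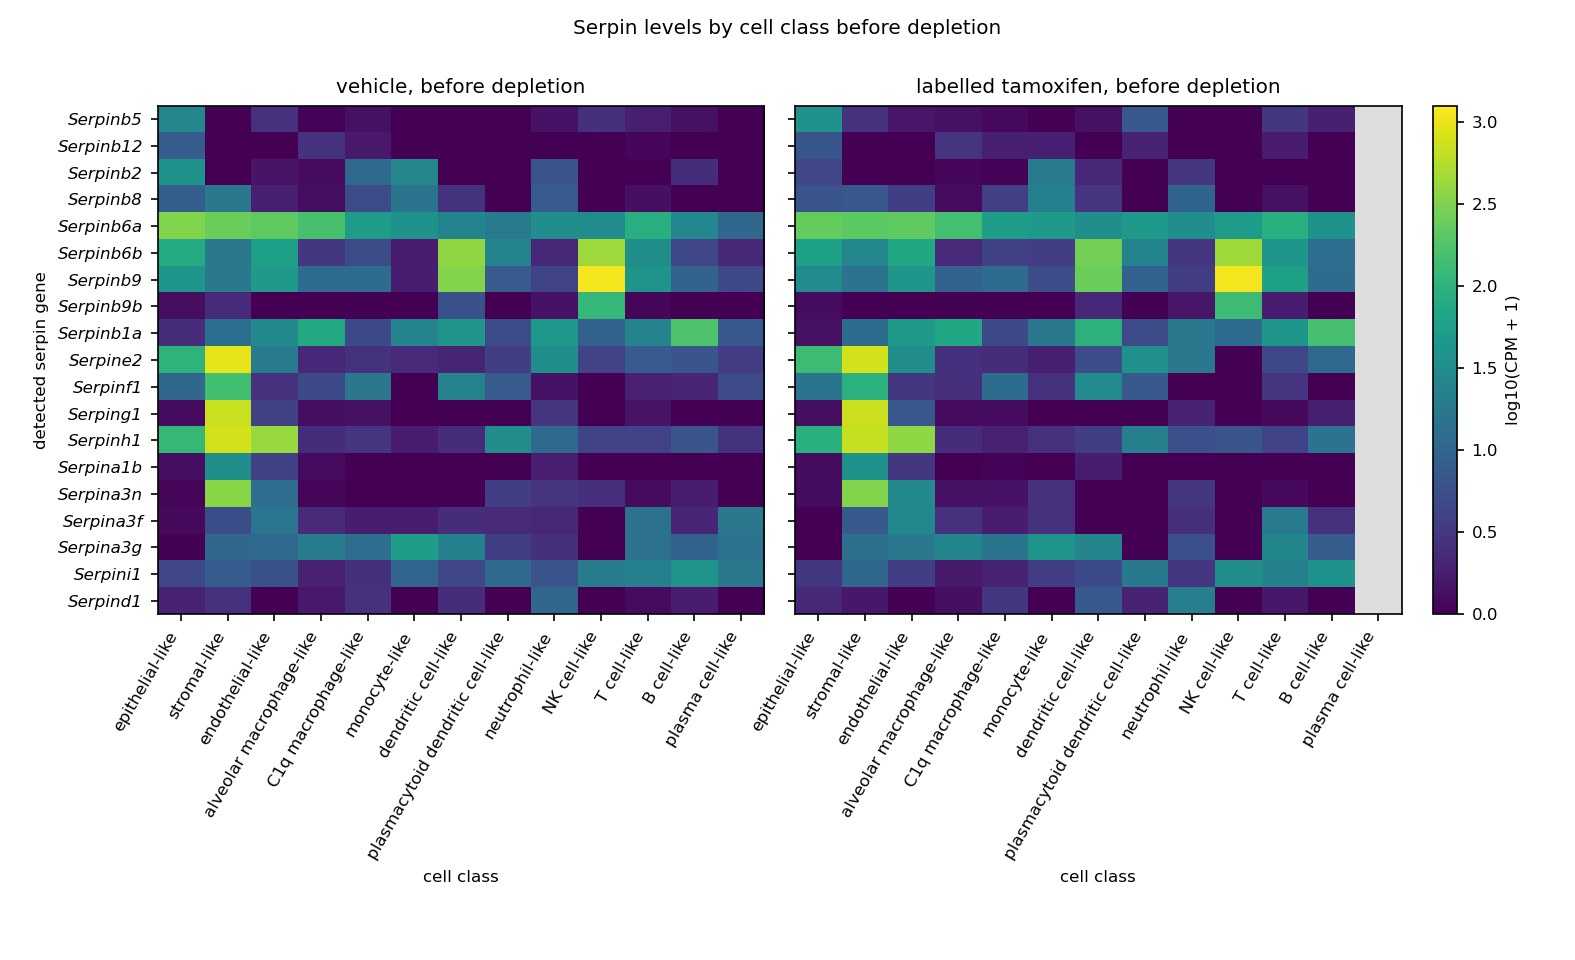
Heat maps of serpin levels in the vehicle library (left) and the library labelled tamoxifen (right), both before depletion. Each row is a detected serpin, each column a cell class, and colour gives log10(CPM + 1) of the summed UMIs, with grey for a class under 50 cells. In both libraries bright cells for Serpine2, Serping1, Serpinh1 and Serpina3n fall in the stromal-like column. Serpinh1 is also bright in the endothelial-like column. Those for Serpinb9 and Serpinb6b fall in the NK cell-like and dendritic cell-like columns of both libraries.

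Most of the family lies in 3 stretches of the genome, each a run of genes no more than 500 kb apart (GENCODE M21 annotation, GRCm38). They held 50 of the 62 members. The stretch on chromosome 1 (chr1:106861173-107610484) held 11 members, of which 4 were detected, namely Serpinb5, Serpinb12, Serpinb2 and Serpinb8. The stretch on chromosome 12 (chr12:103614786-104414329) held 23 members with 4 detected, and the one on chromosome 13 (chr13:32842092-34002794) held 16 with 5 detected. Neighbours did not share 1 leading class by CPM before depletion. On chromosome 13 the adjacent genes Serpinb6b, Serpinb9 and Serpinb9b were led by NK cell-like cells, Serpinb1a by B cell-like cells and Serpinb6a by epithelial-like cells. The Serpinb6a lead in the tamoxifen library was within counting error, at 1.075-fold (0.972 to 1.19). A leading class need not hold the most UMIs. For Serpinb6b, epithelial-like cells held 2293 and 1846 UMIs and NK cell-like cells 270 and 162 (vehicle and tamoxifen before depletion).

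The 150 bases before the RefSeq start site (GRCm38.p6) are shown for the 4 detected genes of the chromosome 1 stretch. These were among the serpins that varied between epithelial states. The same stretch is shown for the 3 neighbours on chromosome 13 that NK cell-like cells led. Capitals mark matches, on either strand, to the TATA box TATAAA, the AP-1 site TGAGTCA, the interferon-gamma activated site TTCNNNGAA and the interferon-stimulated response element. The sequences run 5′ to 3′ along the gene.
Serpinb5 (chr1:106861025-106861174, plus strand): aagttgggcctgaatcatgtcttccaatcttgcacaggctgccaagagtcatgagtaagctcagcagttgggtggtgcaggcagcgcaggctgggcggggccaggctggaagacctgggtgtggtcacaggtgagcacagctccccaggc
Serpinb12 (chr1:106934299-106934448, plus strand): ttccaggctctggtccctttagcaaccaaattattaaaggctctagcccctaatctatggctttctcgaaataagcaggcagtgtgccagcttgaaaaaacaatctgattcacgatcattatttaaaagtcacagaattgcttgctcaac
Serpinb2 (chr1:107511273-107511422, plus strand): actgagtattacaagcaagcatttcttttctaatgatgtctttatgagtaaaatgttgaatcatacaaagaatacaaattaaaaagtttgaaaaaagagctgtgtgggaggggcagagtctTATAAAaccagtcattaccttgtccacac
Serpinb8 (chr1:107589856-107590005, plus strand): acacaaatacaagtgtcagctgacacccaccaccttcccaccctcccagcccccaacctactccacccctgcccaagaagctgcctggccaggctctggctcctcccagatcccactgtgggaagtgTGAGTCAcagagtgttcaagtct
Serpinb6b (chr13:32965111-32965260, plus strand): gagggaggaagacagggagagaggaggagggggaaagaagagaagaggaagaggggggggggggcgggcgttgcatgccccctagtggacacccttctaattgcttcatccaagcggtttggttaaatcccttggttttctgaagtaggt
Serpinb9 (chr13:33004391-33004540, plus strand): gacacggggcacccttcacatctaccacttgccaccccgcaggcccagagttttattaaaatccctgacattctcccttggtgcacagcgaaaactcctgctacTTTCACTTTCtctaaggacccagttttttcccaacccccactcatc
Serpinb9b (chr13:33027264-33027413, plus strand): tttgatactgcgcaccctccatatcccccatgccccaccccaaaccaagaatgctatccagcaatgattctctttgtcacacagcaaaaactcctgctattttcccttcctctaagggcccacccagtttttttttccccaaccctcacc
Serpinb2 held a TATA box 29 bases before its start, Serpinb8 an AP-1 match 23 bases before and Serpinb9 an interferon-stimulated element 46 bases before, read on the opposite strand. Over 300-base windows from 250 bases before to 50 after the start, 17 of the 20 detected serpins had a RefSeq promoter. TATAAA lay in 3 of the 17, against 13.6% of all 32851 promoters, and TGAGTCA in 2, against 5.2%. The interferon-gamma activated site lay in 4, against 8.3%, and the interferon-stimulated element in 2 (Serpinb6a and Serpinb9), against 3.44%. The serpins were counted as genes with a match in any of their promoters, whereas the percentages are of single promoters. A gene with several promoters had more chances to match, so the counts and percentages are not directly comparable. A match here is a run of letters and not a measured site.

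Serpine2, Serping1 and Serpina3n were highest in stromal-like cells (119 and 83 cells in the vehicle and tamoxifen libraries before depletion, 195 and 115 after it). Serpine2 encodes protease nexin-1, which inhibits thrombin and urokinase, and stood at 974 and 772 CPM before depletion and 798 and 861 CPM after it. The epithelial-like class was next for Serpine2, at 104 and 134 CPM before depletion and 87.8 and 118 CPM after it. Before depletion the stromal level exceeded the next class by 9.41-fold (8.93 to 9.91) and 5.76-fold (5.41 to 6.13) in the vehicle and tamoxifen libraries. As shares of all UMIs of the gene, epithelial-like cells held 47.7% and 67.9% and stromal-like cells 43.7% and 20.8%. The class with the highest level therefore did not hold the most Serpine2 UMIs among the cells kept. These shares depend on how many cells of each class were recovered, so the main source in the tumours is not shown.

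Serping1, the C1 inhibitor that blocks the complement proteases C1r and C1s and plasma kallikrein, was nearly restricted to this class. It stood at 694 and 709 CPM before depletion and 422 and 529 CPM after it, while the next class, endothelial-like cells, stood at 3.08 CPM in the vehicle library and 6.04 CPM in the tamoxifen library before depletion. Stromal-like cells made up 1.68% and 1.36% of the cells kept before depletion and held 98.1% and 96.5% of all Serping1 UMIs. Its target proteases C1ra and C1s1 were highest in the same class, at 85.8 and 96.6 CPM for C1ra and 171 and 183 CPM for C1s1. Serpina3n, a mouse relative of alpha-1-antichymotrypsin that inhibits granzyme B and leukocyte elastase, stood at 349 and 336 CPM before depletion and 208 and 246 CPM after it. Stromal-like cells held 95.5% and 87.6% of its UMIs before depletion.

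Serpinh1 and Serpinf1, which do not act as protease inhibitors, were also highest in stromal-like cells before depletion. Serpinh1 encodes HSP47, a chaperone for procollagen in the endoplasmic reticulum, and stood at 765 and 669 CPM before depletion and 836 and 710.0 CPM after it in stromal-like cells. It was less restricted than the inhibitors: endothelial-like cells held 413 and 370.4 CPM before depletion and 484 and 366 CPM after it, and epithelial-like cells 118 and 92.8 CPM before depletion and 130.1 and 96.3 CPM after it. Serpinf1 encodes pigment epithelium-derived factor, a secreted protein that restrains vessel growth, and stood at 143 and 94.8 CPM before depletion and 148 and 116 CPM after it in stromal-like cells. Dendritic cell-like cells were next for Serpinf1, at 23.2 and 30.1 CPM before depletion.

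Within the stroma, cells with at least 3 fibroblast markers, and with more of these than mural markers, were taken as fibroblast-like. They numbered 91, 51, 126 and 63, in the order vehicle and tamoxifen before depletion, vehicle and tamoxifen after it. They were compared with cells of the reverse pattern (25, 26, 48 and 43 cells), taken as mural-like. A cell on either side could still carry markers of the other. Mural cells are the pericytes and smooth muscle cells around vessels. In the same order of libraries, Serpina3n stood at 434, 443, 249.7 and 388 CPM in fibroblast-like cells and 23.1, 111, 90.04 and 50.8 CPM in mural-like cells. Serping1 stood at 794, 856, 446 and 669 CPM against 258, 447, 326 and 387 CPM. These inhibitors, and Serpinf1 (169, 136, 169 and 136 against 49.8, 10.9, 38.3 and 74 CPM), were higher on the fibroblast side in every library. Serpina1b, an alpha-1-antitrypsin gene whose product is the main circulating inhibitor of neutrophil elastase, lay on the other side, with 105, 128, 55.6 and 163 CPM in mural-like cells and 3.6, 4.51, 1.0 and 1.4 CPM in fibroblast-like cells. Of the 31-base words in its last 500 transcript bases, 42.5% also occur in another gene and 28.0% in Serpina1d, so the copy that was counted is uncertain. Serpinh1 did not separate the sides (773, 687, 799.8 and 746 against 770.1, 641, 910.0 and 702 CPM), and the order for Serpine2 differed between libraries (886, 577, 718 and 925 against 1284, 878, 816 and 802 CPM).

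**Figure D2:**
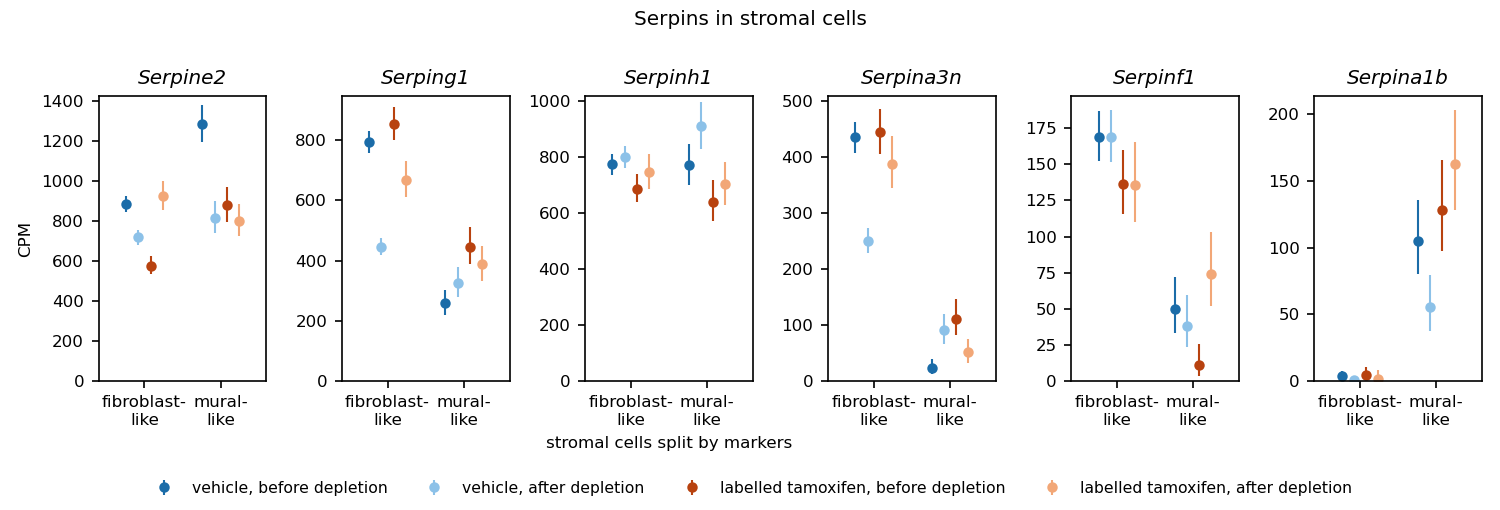
Levels of stromal serpins in fibroblast-like and mural-like cells of the 4 libraries. The y axis is CPM of summed UMIs, each point is 1 library and bars are exact 95% Poisson intervals; Serpina3n, Serping1 and Serpinf1 lie higher in fibroblast-like cells of every library, and Serpina1b in mural-like cells of every library.

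Serpinb9, Serpinb6b and Serpinb9b were highest in NK cell-like cells before depletion. Serpinb9 encodes the granzyme B inhibitor with which killer cells guard themselves. NK cell-like cells (133 and 91) held 1139 CPM (1056 to 1228) of Serpinb9 in the vehicle library and 1106 CPM (1000 to 1221) in the tamoxifen library before depletion. Dendritic cell-like cells (143 and 127) were next, at 332 and 249.8 CPM, and T cell-like cells stood at 39.8 and 56.8 CPM. The NK cell-like level exceeded the dendritic one by 3.44-fold (3.11 to 3.8) and 4.43-fold (3.9 to 5.03). The target, granzyme B (Gzmb), stood at 1487 and 1143 CPM in NK cell-like cells and at 25.4 and 67.6 CPM in T cell-like cells.

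With every cell thinned to 2000 UMIs, a Serpinb9 UMI was found in 78.5% (70.1 to 85.5) and 76% (64.8 to 85.1) of NK cell-like cells, in 42.2% (34 to 50.8) and 27.8% (20.2 to 36.5) of dendritic cell-like cells, and in 9.71% (7.87 to 11.8) and 6.61% (5.14 to 8.35) of epithelial-like cells. Unthinned, the NK cell-like shares were 88% and 85.7%. Neutrophil-like cells, which should lack the gene, showed 0.668% and 0.476% thinned. Median depth was 4300 and 3848 UMIs in NK cell-like cells and 3423 and 3622 in neutrophil-like cells. Most cells of the NK cell-like class thus carried the transcript. Epithelial-like cells, at 13.2% and 16.2% of the cells kept, held 31.2% and 33.8% of all Serpinb9 UMIs before depletion, more than the 17.7% and 13.8% in NK cell-like cells.

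The 2 neighbours of Serpinb9 had the same leading class. Serpinb6b, a relative of the cathepsin G inhibitor Serpinb6a, stood at 447 and 452 CPM in NK cell-like cells and at 384 and 272 CPM in dendritic cell-like cells. Serpinb9b was nearly restricted to NK cell-like cells, at 114 and 131 CPM, against 5.07 and 1.19 CPM in dendritic cell-like cells. Dendritic cell-like cells thus shared Serpinb9 and Serpinb6b with NK cell-like cells but held little Serpinb9b. In its last 500 transcript bases, 14.0% of the 31-base words of Serpinb9b also occur elsewhere, mostly in Serpinb9, which bounds how well these copies are told apart.

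Macrophages were led by other members. In the alveolar macrophage-like class (1616 and 2073 cells before depletion) the levels of 2 clade B members stood out, Serpinb6a, at 158 CPM in the vehicle library and 146 CPM in the tamoxifen library, and Serpinb1a, at 74.6 and 69.9 CPM. Serpinb1a encodes a cytosolic inhibitor of neutrophil elastase. It was highest in B cell-like cells, at 171 and 151 CPM, but the more numerous alveolar macrophage-like cells held 51.5% and 62% of its UMIs. The C1q macrophage-like class (1292 and 781 cells) held less of both, with Serpinb1a at 3.77 and 3.89 CPM and Serpinb6a at 50.1 and 52.7 CPM.

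Macrophage clusters differed among themselves. Serpina3g, which inhibits lysosomal cathepsins, stood at 14.4 and 16.4 CPM in the alveolar cluster led by Chil3, Lepr and Kcnip4 (968 and 1392 cells), against 37.7 and 55.4 CPM in the one led by Chil3, Ctsk and Gpnmb (436 and 505 cells). Among C1q macrophage-like cells, Serpinf1 was concentrated in the cluster led by C1qa, Ms4a7 and Ccl12 (313 and 252 cells), at 42.9 and 28.9 CPM, against 8.87 and 4.76 CPM in the cluster led by Mgl2 and Dcstamp (979 and 529 cells). The clusters compared within each class thus kept the same order in the vehicle and the tamoxifen library for these genes. The alveolar class also held a cluster led by Chil3, Top2a and Mki67 (212 and 176 cells), which is not part of this comparison.

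The remaining immune members were low. Among whole classes, Serpina3g was highest in monocyte-like cells (146 and 113), at 53.5 and 39.3 CPM. In the tamoxifen library the alveolar cluster led by Chil3, Ctsk and Gpnmb stood above that monocyte-like level. Of the 31-base words in the last 500 transcript bases of Serpina3g, 38.8% occur elsewhere, mostly in Serpina3f, so these copies are uncertain. Serpini1, the neuroserpin that inhibits tissue-type plasminogen activator, led in B cell-like cells, at 38.8 and 37.9 CPM. In the tamoxifen library its lead over NK cell-like cells (33.4 CPM) was 1.13-fold (0.587 to 2.36), within counting error. Serpina3f reached 16.1 CPM in plasma cell-like cells of the vehicle library and 26.9 CPM in endothelial-like cells of the tamoxifen library. In the vehicle library its plasma cell-like level exceeded the endothelial one (15.4 CPM) by 1.04-fold (0.602 to 1.78), which is within counting error, and the tamoxifen library held 47 plasma cell-like cells, too few to be ranked. For Serpinb8 the lead of stromal-like over monocyte-like cells in the vehicle library was 1.08-fold (0.629 to 1.91), also within counting error. Serpind1, the thrombin inhibitor heparin cofactor II, stood at 9.61 and 20.2 CPM in neutrophil-like cells.

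Epithelial-like cells (932 and 990 before depletion, 6394 and 7037 after it) were led by a member that most classes carried. Serpinb6a, an intracellular inhibitor of cathepsin G, stood at 323 and 235 CPM before depletion and 414 and 282 CPM after it, and supplied 39.9%, 34.7%, 46.9% and 39.3% of their serpin UMIs in that order. The next class was close: stromal-like cells held 255 CPM in the vehicle library, and endothelial-like cells 218 CPM in the tamoxifen library. Serpinb5, or maspin, a clade B protein without protease-inhibiting activity that epithelia carry, was more restricted, at 26.6 and 38.2 CPM before depletion and 38.7 and 43.5 CPM after it. Serpinb12, an inhibitor of trypsin-like proteases, stood at 6.93 and 5.7 CPM before depletion and 12.8 and 4.15 CPM after it.

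To compare epithelial states, the epithelial-like cells were clustered again without the serpins, and 9 states held at least 50 cells in at least 2 libraries. They are called by their leading genes. Of 11 members that reached 10 CPM in a state, 8 varied, meaning that they differed by 4-fold or more between their highest and lowest state in every library that held both. Over all genes, 23.3% of 10881 varied by this rule. They included Serpinb2, Serpinb5, Serpinb8, Serpinb12, Serpinf1, Serpinb6b and Serpinb9.

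Of the chromosome 1 genes, Serpinb2, Serpinb5 and Serpinb8 were highest in the same pair of states. In the Pyy and Tff1 state, the state highest in the transitional markers, Serpinb2 (plasminogen activator inhibitor 2) stood at 148, 12.3, 87 and 31.5 CPM (vehicle and tamoxifen before depletion, then vehicle and tamoxifen after it, as in the lists that follow). Serpinb5 stood there at 53.3, 71.1, 69.5 and 89.5 CPM and Serpinb8, an inhibitor of furin, at 18.5, 9.48, 16.2 and 9.54 CPM. In the Lyz1 and Scd1 state, whose cells carried the most alveolar type 2 genes, Serpinb2 stood at 0, 0, 0.251 and 0.0728 CPM and Serpinb5 at 0, 0.269, 1.0 and 0.656 CPM. In the small Npy, Inhba and Fbln2 state, which reached 50 cells only after depletion (94 and 80), Serpinb5 stood at 135 and 76.2 CPM, Serpinb2 at 69.6 and 50.8 CPM and Serpinb12 at 84.8 and 4.11 CPM (vehicle and tamoxifen). Serpinb2 and Serpinb5 were therefore near 0 in the type 2 state and present in the transitional one in every library.

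The NK-led pair Serpinb6b and Serpinb9 had an epithelial pattern of its own. In the Rtkn2, Akap5 and Hopx state, the one highest in alveolar type 1 genes, Serpinb6b stood at 128 CPM in the tamoxifen library before depletion and at 299.9 and 182 CPM after it (vehicle and tamoxifen). Serpinb9 stood there at 131 CPM before depletion and 203 and 99 CPM after it. In the type 2 state Serpinb6b stood at 179, 135, 168 and 186 CPM and Serpinb9 at 69.3, 52.4, 63.4 and 71.2 CPM. Both were lower in the state led by Ttr, Tff3 and Agr2, which carried gastrointestinal genes, at 13.1, 15.5 and 26.2 CPM for Serpinb6b and 7.62, 7.67 and 9.79 CPM for Serpinb9 (vehicle before and after depletion, tamoxifen after it). The type 2 state thus held more of both genes than the gastrointestinal state in each of those libraries, and the type 1 state did after depletion. The states did not split into alveolar and other ones. In the Pyy and Tff1 state Serpinb6b stood at 66.25, 80.4, 81 and 91.4 CPM and Serpinb9 at 44.2, 54.3, 50.7 and 57 CPM. In the Bex2 and Bex4 state Serpinb9 stood at 17.05, 9.87, 18.2 and 15.7 CPM. Its lowest mean was in the state led by Plppr1, at 7.64 CPM. The 7 NK cell markers summed to 1.07, 0.729, 0.325 and 0.307 CPM in epithelial-like cells, in the same order of 4 libraries as before. The 7 dendritic cell markers summed to 6.34, 5.8, 5.25 and 4.93 CPM there, and the part of either list in the result was not tested.

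Serpinf1 was highest in 1 state. In the state led by Plppr1, Dcn and Lypd2, which reached 50 cells only in the tamoxifen libraries, it stood at 92.8 and 90.3 CPM before and after depletion. In the Pyy and Tff1 state it stood at 0.898, 0.862, 1.09 and 0.864 CPM. The 6 fibroblast markers, one of which is Dcn, a leading gene of this state, summed to 18.8, 49.4, 23.6 and 49.2 CPM in all epithelial-like cells. Lum was at 0 in 3 of the 4 libraries. Their part in the Serpinf1 level was not tested.

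Serpinb6a, Serpine2 and Serpinh1 did not meet the rule. Serpinb6a still ran from 95.6 and 98.4 CPM in the Plppr1 state (tamoxifen before and after depletion) and 114, 116, 134 and 135 CPM in the type 2 state to 585, 465, 693 and 537 CPM in the Pyy and Tff1 state and 934 and 992 CPM in the Npy state. Only 1 library held both its highest and its lowest state, and the rule asks for 2. Serpine2 was highest in the state led by Bpifa1 and Dcpp1, at 197, 132 and 155 CPM (tamoxifen before depletion, then vehicle and tamoxifen after it), and in the type 1 state stood at 16.9, 26.9 and 41.9 CPM in the same libraries.

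**Figure D3:**
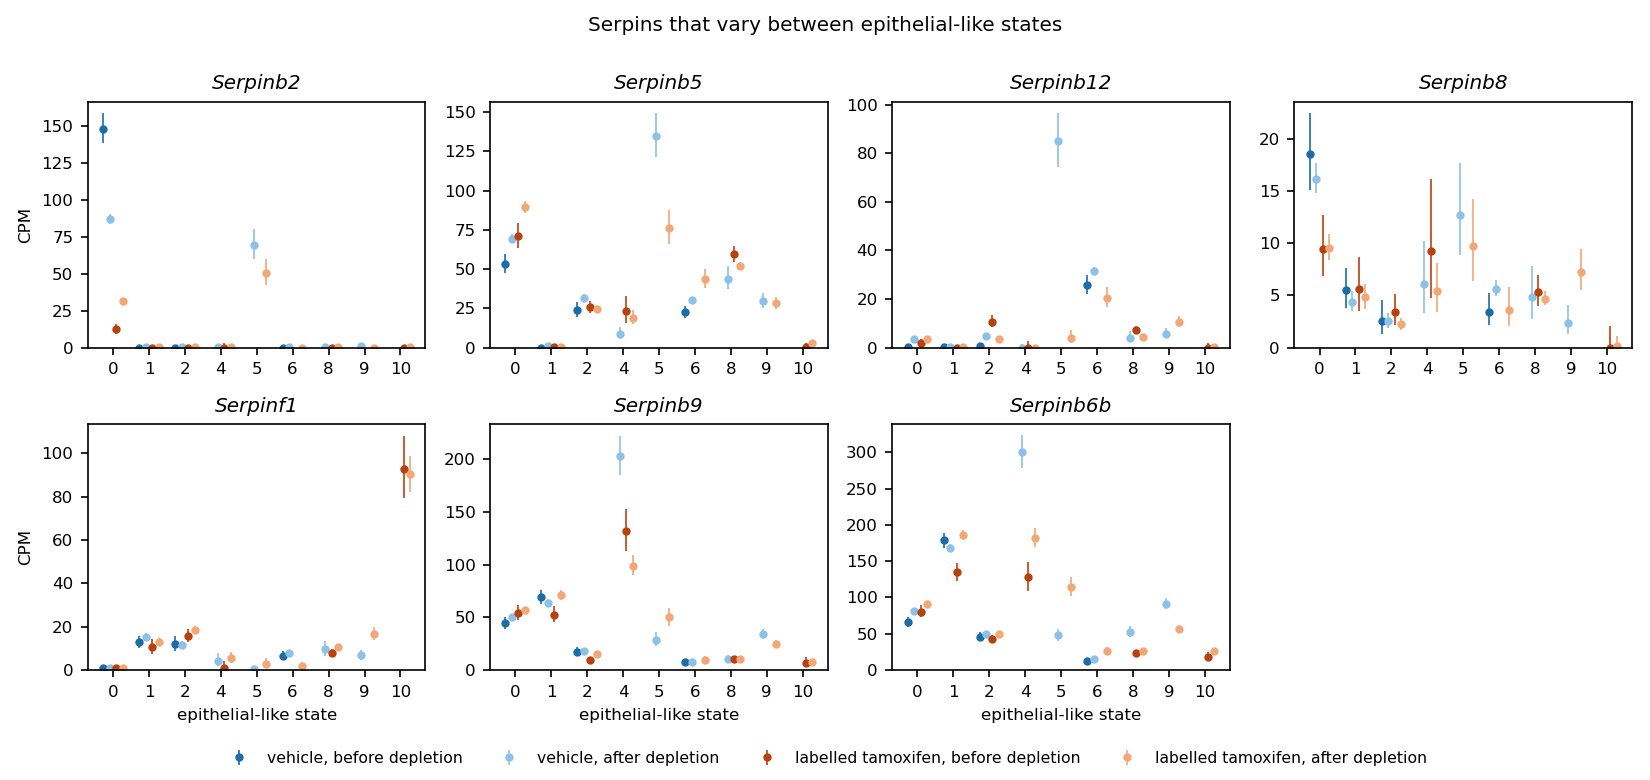
Levels of 7 serpins that varied between epithelial states. The x axis numbers the states (0 led by Pyy and Tff1, 1 by Lyz1 and Scd1, 2 by Bex2 and Bex4, 4 by Rtkn2 and Hopx, 5 by Npy and Inhba, 6 by Ttr and Agr2, 8 by Bpifa1 and Dcpp1, 9 by Ube2c and Mki67, 10 by Plppr1 and Dcn), the y axis is CPM, each point is 1 library in which the state held at least 50 cells and bars are exact 95% Poisson intervals; Serpinb2 and Serpinb5 are near 0 in state 1 and high in state 0, and Serpinf1 is highest in state 10.

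Between treatments, Serpinb2 was the only 1 of the 9 members above a minimum level whose level in epithelial-like cells differed by 2-fold or more in 1 direction both before and after depletion. Of these 9 members (at least 10 CPM in either library of each pair), 0 were higher and 1 was lower in the tamoxifen libraries, where 0.387% and 0.962% of all 9039 genes were called higher and lower. The median log2 ratio of the 9 members was -0.34 before depletion and -0.10 after it, beside -0.04 and 0.01 over all genes tested. Serpinb2 stood at 37.5 CPM (35.3 to 39.8) in the vehicle library and 3.55 CPM (2.92 to 4.27) in the tamoxifen library before depletion. After depletion it stood at 21.8 CPM (21 to 22.6) and 6.87 CPM (6.44 to 7.33). Vehicle exceeded tamoxifen by 10.6-fold (8.7 to 13) and 3.17-fold (2.94 to 3.42).

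Few cells carried Serpinb2. Before depletion 31 of 932 vehicle cells and 11 of 990 tamoxifen cells had a UMI, and 1 vehicle cell held 242 of the 1088 UMIs. After depletion 272 of 6394 and 142 of 7037 cells had a UMI. Cells with at least 10 UMIs made up 1.40% and 0.303% of the class before depletion and 1.13% and 0.426% after it. With cells thinned to 2000 UMIs, the shares with a UMI were 1.2% (0.60 to 2.14) and 0.509% (0.165 to 1.18) before depletion and 1.53% (1.24 to 1.86) and 0.643% (0.469 to 0.859) after it, and unthinned they were 3.33%, 1.11%, 4.25% and 2.02%. Alveolar macrophage-like cells, with a median of 8791 and 9006 UMIs against 26437 and 28821 in epithelial-like cells, showed thinned shares of 0.0625% and 0.0485%. The vehicle libraries thus held more Serpinb2-carrying cells at equal depth, although the thinned intervals before depletion overlapped. Without the 3 cells with the most Serpinb2 UMIs in each library the log2 ratios were -3.04 and -1.56. The ratio before depletion also rested on the 459 mixed cells being set apart: 2 such cells of the tamoxifen library held 242 UMIs, and with the mixed cells kept the log2 ratio was -1.72 in place of -3.08.

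The shares of the states differed between treatments. The Ttr, Tff3 and Agr2 state made up 12.7% and 18.9% of epithelial-like cells in the vehicle libraries (before and after depletion) and 1.52% and 1.68% in the tamoxifen libraries. The Bpifa1 and Dcpp1 state made up 1.61% and 2.6% against 26.0% and 28.5%. Serpinb2 could be compared within 3 pairs of a state and a library pair, and its log2 ratio of tamoxifen over vehicle ran from -3.49 to -0.45. In the Pyy and Tff1 state, which held most of it, the levels were 148 and 12.3 CPM before depletion and 87 and 31.5 CPM after it. The lower value in tamoxifen libraries was thus present within that state.

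The other members above the minimum differed by less than 2-fold in at least 1 pair. Serpinb6c and Serpina7, far under it, stood at 1.72, 0.443, 1.94 and 0.875 CPM and 0.414, 0.0634, 0.488 and 0.179 CPM (vehicle and tamoxifen before depletion, then after it), which in each pair is more than 2-fold lower in tamoxifen with nothing added. These values rest on 50, 14, 262 and 117 UMIs and on 12, 2, 66 and 24 UMIs. Other members with few UMIs did the same, such as Serpina12 (8, 0, 25 and 6 UMIs) and Serpina3g (1, 0, 17 and 3 UMIs). The share of all genes under the minimum that did so was not computed. Serpinb6a was higher in vehicle by 1.37-fold (1.33 to 1.42) before depletion and 1.47-fold (1.45 to 1.49) after it. Within states its log2 ratios ran from -0.64 to 0.09 over 11 comparisons, of which 7 were below 0. Serpinh1 was higher in vehicle by 1.27-fold (1.21 to 1.33) and 1.35-fold (1.32 to 1.38), and 9 of its 11 ratios within states were below 0. Serpine2 was higher in tamoxifen by 1.29-fold (1.24 to 1.36) and 1.35-fold (1.32 to 1.38), and Serpinf1 by 1.44-fold (1.25 to 1.68) and 1.39-fold (1.29 to 1.5). These differences went the same way in both pairs and exceeded counting error, without a second library to show how much suspensions vary. The pre-depletion log2 ratio of Serpine2 moved from 0.37 to 0.07 when each cell counted equally, and that of Serpinf1 from 0.49 to 0.10 with the class set cell by cell. Within states 4 of 11 ratios of Serpine2 and 2 of 6 of Serpinf1 were below 0.

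Serpinb6b and Serpinb9 were higher in vehicle by 1.35-fold (1.27 to 1.44) and 1.36-fold (1.25 to 1.48) before depletion, and by 1.01-fold (0.982 to 1.04) and 1.07-fold (1.03 to 1.12) after it. Serpinb5 was higher in tamoxifen by 1.44-fold (1.31 to 1.58) and 1.12-fold (1.08 to 1.17). Serpinb12 was under the minimum before depletion, and after it vehicle exceeded tamoxifen by 3.09-fold (2.8 to 3.4). Within the Npy state the Serpinb12 values were 84.8 and 4.11 CPM, and in the Ttr, Tff3 and Agr2 state, mostly of vehicle cells, they were 31.4 and 20.4 CPM after depletion. In the Bex2 and Bex4 state before depletion Serpinb12 lay the other way, at 0.467 CPM (2 UMIs) in vehicle and 10.6 CPM (74 UMIs, 27 of them in 1 cell) in tamoxifen, a 22.7-fold difference (6.05 to 190.5). Over 4 comparisons within states its log2 ratio ran from -4.07 to 2.98, with 2 below 0.

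**Figure D4:**
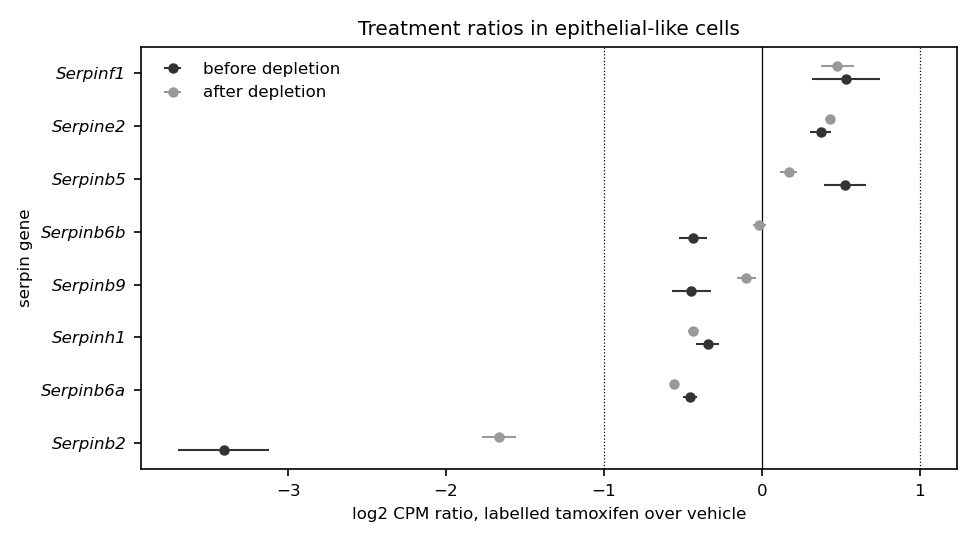
Log2 ratios of tamoxifen over vehicle for serpins in epithelial-like cells, for the libraries before and after depletion. Each point is the log2 ratio of CPM in 1 pair of libraries with nothing added, bars are exact 95% intervals for counting error and dotted lines mark 2-fold; of the serpins shown, Serpinb2 alone lies beyond 2-fold in both pairs.

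In the other classes, single libraries were compared pair by pair, with a minimum of 10 CPM in either library and 20 UMIs over both. Stromal-like cells had 14 members tested in each pair. Before depletion 0 were higher and 1 lower in the tamoxifen library, with 5.46% of all genes called either way, and after depletion 1 was higher and 2 lower, with 5% called. Serpinb8 was the lower one before depletion (16 and 5.96 CPM), and stood at 7.97 and 11.7 CPM after it. After depletion Serpina1b was higher (12.5 and 60.9 CPM), while before it the values were 34.4 and 38.2 CPM. The lower ones after depletion were Serpinb9 (23.9 and 3.9 CPM, in 40 and 5 cells) and Serpinb2 (24.7 CPM from 7 vehicle cells and 0 in tamoxifen). Before depletion Serpinb9 stood at 16.7 and 14.3 CPM and Serpinb2 had no UMI in stromal-like cells, so none of these 4 differed by 2-fold the same way in both pairs. The 7 epithelial markers, all with UMIs, summed to 321 and 5678 CPM in the stromal-like class before depletion and 14843 and 6754 CPM after it, and their part in these results was not tested. The main stromal members Serpine2, Serping1, Serpinh1, Serpinf1 and Serpina3n, stayed within 2-fold in both pairs.

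Among C1q macrophage-like cells, 6 members were tested and 1 was lower, with 0.641% of all genes called. That was Serpinb2, at 10.4 CPM (9.09 to 11.8) in the vehicle library, from 20 of 1292 cells, and 0.0708 CPM (0.00179 to 0.394) in the tamoxifen library, from 1 of 781 cells. Nearly all of it lay in the cluster led by Mgl2 and Dcstamp, at 13.1 and 0.0972 CPM. The most in 1 cell was 69 UMIs, and without the 3 highest cells the log2 ratio was -2.34. Epithelial markers summed to 1400 and 837 CPM in this class (7 of 7 with UMIs), and their part in the result was not tested. Monocyte-like cells, another source of Serpinb2, stood at 26.1 CPM (18.4 to 35.9) and 18.3 CPM (11.3 to 28).

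Alveolar macrophage-like cells had 5 members tested and 0 called (1.12% of all genes called), T cell-like cells 7 and 0 (1.74%), NK cell-like cells 5 and 0 (7.45%) and monocyte-like cells 5 and 0 (4.24%). In endothelial-like cells 1 of 10 members was higher before depletion (3.98% called) and 0 of 10 after it (4.15%). That was Serpina3n, at 11.9 and 28 CPM before depletion and 14.5 and 23.1 CPM after it. Without the 3 highest cells of each library its log2 ratio before depletion was 0.82, which is less than 2-fold. The fibroblast markers summed to 5.73 and 4.94 CPM in that class before depletion, with Pdgfra and Lum at 0.

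The calls in the smaller classes rested on few UMIs. In B cell-like cells 2 of 7 members were higher (5.84% called), Serpinh1 at 5.49 and 14.1 CPM and Serpinb6b at 3.53 and 12.3 CPM, and without the 3 highest cells of each library the log2 ratios were -0.63 and -0.06. In dendritic cell-like cells 2 of 7 were higher (3.35%). Serpinb1a stood at 40.6 and 97.4 CPM, with 100 of the 246 tamoxifen UMIs in 1 cell and a log2 ratio of -0.78 without the 3 highest cells. In plasmacytoid dendritic cell-like cells (65 and 69) 2 of 5 were higher (6.86%), Serpine2 at 2.72 and 36 CPM and Serpinb6a at 17.7 and 45.5 CPM. Both genes are abundant in epithelial-like cells, and the epithelial markers summed to 1330 and 8390 CPM there (7 of 7 with UMIs). In B cell-like cells these markers summed to 3459 and 5881 CPM, and in neither class was their part in the result tested.

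In neutrophil-like cells (659 and 508) 2 of 5 members were lower in the tamoxifen library (3.88% called). Serpine2 stood at 33.6 and 15.9 CPM, with 52 of 84 UMIs in 1 vehicle cell and 26 of 30 in 1 tamoxifen cell. Serpinb1a stood at 43.6 and 16.5 CPM. Without the 3 highest cells of each library, the log2 ratios were -1.40 and -0.40. The fibroblast markers summed to 66.5 and 26.6 CPM in this class, with Pdgfra and Lum at 0 in both libraries, and their part in the result was not tested.

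After depletion the epithelial serpins above the minimum stayed within 2-fold of their level before it. Of 8 members tested, none differed by 2-fold or more after depletion in both treatments (0 higher, 0 lower), where 0.0225% and 0.0902% of all 8871 genes were. Their median log2 ratio of after over before was -0.01 in the vehicle libraries and 0.04 in the tamoxifen libraries, beside -0.08 and -0.02 over all genes. The highest was Serpinb5 in vehicle, at 0.52. Serpinb2 was under the minimum of 10 CPM in both tamoxifen libraries and was not among the 8. It moved in opposite directions, with log2 ratios of after over before of -0.76 in vehicle and 0.79 in tamoxifen. Serpinb12 and Serpine3, also not among the 8, had ratios of 0.80 and -0.38 and of 1.075 and 0.65.

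The 42 members that did not reach detection were Serpinb3a, Serpinb3b, Serpinb3c, Serpinb3d, Serpinb6c, Serpinb6d, Serpinb6e, Serpinb7, Serpinb9c, Serpinb9d, Serpinb9e, Serpinb9f, Serpinb9g, Serpinb9h, Serpinb11, Serpinb13, Serpinb1b, Serpinb1c, Serpinc1, Serpine3, Serpinf2, Serpini2, Serpina1a, Serpina1c, Serpina1d, Serpina1e, Serpina1f, Serpina3a, Serpina3b, Serpina3c, Serpina3i, Serpina3j, Serpina3k, Serpina3m, Serpina5, Serpina6, Serpina7, Serpina9, Serpina10, Serpina11, Serpina12 and Serpina16. Of these, 13 had no UMI in any kept cell. Low or zero counts are uncertain between near copies: of the 31-base words at the transcript end, 100% occur in another gene for Serpinb9f and Serpinb9h, 67.4% for Serpina1a, 58.5% for Serpinb9e and 47.7% for Serpinb9d. Among the rest were most of the liver's plasma serpins: antithrombin (Serpinc1), which inhibits thrombin, reached 7.45 CPM at most, and thyroxine- and corticosteroid-binding globulins (Serpina7 and Serpina6) stayed under the detection level. Epithelial-like cells held Serpinc1 at 6.72, 4.37, 5.08 and 4.86 CPM.

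Genes around the serpins gave a setting for the epithelial values, as counts of listed genes that passed the same rule of 2-fold in both pairs. Of the plasminogen activator system 6 of 9 genes were tested and 0 were apart, with median log2 ratios of -0.30 and -0.36 before and after depletion. Coagulation proteases and cofactors had 4 of 16 tested and 0 apart (-0.32 and -0.29), and neutrophil and mast cell proteases 2 of 9 and 0 (-0.43 and -0.11). These 2 genes differed in direction in both pairs. After depletion the mast cell tryptase Tpsab1 stood at 38.8 and 14.3 CPM in the vehicle and tamoxifen libraries, and the basophil protease Mcpt8 at 14.1 and 32.8 CPM. Before depletion Tpsab1 stood at 21.2 and 10.1 CPM and Mcpt8 at 21.7 and 24.2 CPM. The log2 ratios of Tpsab1 were -0.9996 before depletion, just short of the 2-fold rule, and -1.38 after it. Of the cathepsins 10 of 14 were tested and 0 were apart (0.03 and 0.18), and of the epithelial surface serine proteases 7 of 12 and 0 (-0.06 and -0.03). Complement proteases had 3 of 11 tested, 0 higher and 1 lower (-0.60 and -0.26), the lower being Cfi, which cleaves C3b, at 43.4 and 15.1 CPM before depletion and 54.5 and 18.2 CPM after it. No gene of the granzyme and perforin list (6 genes) reached the minimum in epithelial-like cells. The tested genes of the plasminogen and coagulation lists were mostly receptors and cofactors, and the proteases F2, Plau, Plg, Elane and Ctsg also stayed under it.

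Among inhibitors that are not serpins, 11 of 22 were tested, with 1 higher and 0 lower (0.21 and 0.18). That was Itih2, a chain of the inter-alpha-trypsin inhibitors, at 33.0 and 86.4 CPM before depletion and 29.2 and 77.4 CPM after it. The list of collagens and collagen-modifying enzymes had 7 of 17 tested and 0 apart (0.10 and 0.22), namely the collagen chains Col4a1, Col4a2 and Col6a1 and the enzymes and chaperones P3h1, P4ha1, P4hb and Fkbp10. Heat shock genes had 10 of 10 tested and 0 apart (-0.13 and -0.28). Interferon-induced genes had 6 of 12 tested and 0 apart (0.13 and 0.003), acute-phase genes 6 of 12 and 0 (-0.18 and -0.001), and TGF-beta response genes 7 of 8 and 0 (-0.36 and 0.07). Liver plasma proteins that are not serpins had 6 of 16 tested, with 0 higher and 3 lower in the tamoxifen libraries (-0.92 and -1.34). They were the transport proteins Ttr (48.4 and 3.07 CPM before depletion, 58.7 and 5.94 after), Gc (12.6 and 2.19, then 10.7 and 2.61) and Rbp4 (361 and 169, then 474 and 192). Antithrombin (Serpinc1), a plasma serpin of the same organ, stayed under 10 CPM in epithelial-like cells of all 4 libraries.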

How the data were processed

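Single-cell libraries of mouse lung tumours were counted with Cell Ranger, version 7.0.1 per the file headers and 7.2.0 per the submitters' processing notes, which name the build mm10. The annotation release and the treatment of intronic reads are not given in the sources used here. The deposited values are whole UMI counts per gene and cell, which the authors did not normalize. 1 engineered allele of the shared genotype and 1 detected serpin are not reported here by name, and the serpin stays in the counts and sums over the family.

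Barcodes were dropped below 200 detected genes or above 20% mitochondrial UMIs, and those with a doublet score of 0.25 or more (scanpy 1.11.5, Scrublet) were removed, 122 to 216 per library, which left 6105 to 7355. The 4 libraries were clustered together on 2000 variable genes without the serpins (40 components, Leiden resolution 1), and clusters were named from at least 3 detected markers. Counts were summed per class and library and divided by the class total. Each group holds 1 library, so no p-value was computed. Intervals are exact Poisson (levels), conditional binomial (ratios) and Clopper-Pearson (shares). Ratios for the 2-fold rule and for log2 values in the text were taken on log2(CPM + 1), which understates the difference of low genes. Folds with intervals are ratios of CPM with nothing added. The rule called 200 of 200 changed genes the right way, 0 the wrong way and 0 unchanged ones in simulated counts of 8897 genes for the epithelial-like treatment comparison. The changed genes stood at 20 CPM or more before the change and were moved by 3-fold or 4-fold, with counting error only. Such large changes were bound to pass, so the simulation cannot show how the rule performs near 2-fold or near its minimum level. How the rule performs when suspensions vary was not tested, because each group holds 1 library.

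Genes named with values are those that reached 50 CPM in their leading class, were apart in a comparison or varied between states, and other detected members are given by their leading class. The members, gene lists, markers and rules were chosen with earlier results of these data known. Alternatives covered scaling (TMM with edgeR 4.0.16, median of ratios with DESeq2 1.42.0), pseudocount, filters, doublet removal, cell gating, clustering and thinning. Those with the mixed cells kept or the 3 highest cells left out were chosen after seeing the data.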

Additional observations from a re-analysis of the deposited data

Results flagged for a closer look

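For 2 genes, classes of the libraries before depletion went opposite ways between treatments, and the difference between the classes was not tested. The log2 ratio of tamoxifen over vehicle for Serpinb1a was 1.24 in dendritic cell-like cells and -1.35 in neutrophil-like cells. Without the 3 cells with the most UMIs in each library these ratios were -0.78 and -0.40. For Serpine2 the log2 ratio was -1.03 in neutrophil-like cells and 3.31 in plasmacytoid dendritic cell-like cells, and without those cells -1.40 and 1.77.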

How the results depend on the processing

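With 1 library per group, the limits are the suspensions behind each treatment, which intervals for counting error do not cover, and the small classes, in which 1 cell can hold a large part of a gene's UMIs. No paired analysis was possible because each group holds 1 library. Of the values and counts that answer a comparison, 104 stayed within their limits under an alternative and 22 moved. With a minimum of 50 CPM, 13 members were detected, B cell-like cells led 1, epithelial-like cells 1 and neutrophil-like cells 0, the epithelial count of lower members was 0, and the other classes had 2 higher and 0 lower. At 4-fold the epithelial count of lower members was 0 and the other classes had 3 higher and 3 lower. With a class level taken as the average of its cells' own CPM, epithelial-like cells led 1 member and monocyte-like cells 3. At Leiden resolution 1 within the class, 4 members varied between states. Without the 3 highest cells the other classes had 4 higher, and 3 log2 ratios reversed: Serpinh1 and Serpinb6b in B cell-like cells, at -0.628 and -0.0613, and Serpinb1a in dendritic cell-like cells, at -0.78. For these counts the cause was not tested beyond the stricter limit or the cells left out. The share of epithelial-like cells with a Serpinb2 UMI was 3.33% unthinned in the vehicle library before depletion, 2.40% at 5000 UMIs and 4.25% unthinned in the vehicle library after it, and 1.06% and 2.02% in the tamoxifen library after it. The share of NK cell-like cells with a Serpinb9 UMI was 87.8% at 5000 UMIs and 88.0% unthinned in the vehicle library and 85.7% unthinned in the tamoxifen library. Scaling by TMM or median of ratios left the epithelial count of 1 lower member as it was, with log2 ratios of Serpinb2 before depletion of -3.02 and -3.02. Without doublet removal that ratio was -1.71.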
